A study of Homo sapiens with 6 samples.

Results

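The genes described here were 38 genes of G2 and mitosis, chosen by symbol from what they are known to do in cell division, out of 60662 genes with a value in each library. All 38 were among the 16901 genes tested. They were measured by poly-A RNA-seq in HCT116 cells, an established human colorectal cancer line, that carried either a nontarget control hairpin (shCtrl, 3 libraries) or shRNA2 against the long noncoding RNA GMDS-AS1 (GMDS-AS1 KD, 3 libraries). Both groups were stable lines made with lentivirus from a hairpin plasmid with a puromycin marker, so both carried the vector, and only 1 hairpin against GMDS-AS1 was sequenced. The comparison asked which mitotic transcripts differed once GMDS-AS1 was depleted.

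Entry into mitosis is driven by CDK1 bound to cyclin B, which WEE1 holds inactive by phosphorylation and the CDC25 phosphatases release. Aurora and Polo-like kinases then build the spindle, the kinetochores attach chromosomes to it, and a checkpoint holds the anaphase-promoting complex until every chromosome is attached. The genes for these proteins are mostly transcribed together late in the cell cycle, through the factors FOXM1 and B-MYB and the MuvB complex, which binds a promoter motif called the CHR, and CRC cells as a rule express them strongly. In bulk RNA, fewer cells in G2 and mitosis and less of a transcript per cell cannot be told apart.

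GMDS-DT, the annotated symbol of GMDS-AS1, was low in all libraries, at 1.66, 2.21 and 1.34 TPM in shCtrl and 0.88, 0.91 and 0.79 TPM in GMDS-AS1 KD. TPM is a transcript's share of all transcripts in a library, corrected for its length. Every KD library lay below every shCtrl library, and the log2 fold change was −0.41 (SE 0.14, limma adjusted p = 0.0407). That value was taken on log2(TPM + 1) after scaling between libraries. At so low a level the added 1 draws it toward no change, so it understates the gap in TPM. Of 8 epithelial and colorectal markers, 6 were above 1 TPM, while CDX1 was at 0 in all 6 libraries and VIL1 stayed under 1 TPM. The summed level of the 8 ran from 9171 to 9621 TPM in shCtrl and from 3445 to 3547 TPM in GMDS-AS1 KD, mostly keratins, and its part in the results was not tested. Of the other cell types, 4 of 5 fibroblast, 4 of 5 immune and all 3 endothelial markers were under 1 TPM in every library, with sums of 10.1 to 14.6, 6.57 to 8.86 and 0.01 to 0.94 TPM, respectively. The KD libraries had between 24381 and 24814 genes above 0 TPM and the shCtrl libraries between 26061 and 26402. The read total behind these values is unknown, because TPM does not keep it.

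The mitotic genes did not move as 1 block after GMDS-AS1 KD. On log2(TPM + 1) after trimmed-mean scaling between libraries, 14 of the 38 (36.8%) were lower at an adjusted p under 0.05, where 25.9% of all genes tested were lower. Another 12 (31.6%) were higher, where 28.5% of all genes were, and 12 did not pass. At least 2-fold changes were found for 2 members, TPX2 and CDC25B (5.26% of members), where 7.17% of all genes reached that size. The median log2 fold change of the members was −0.0008, against −0.0020 for all genes tested, and the middle of the members ran from −0.25 to 0.18 (quartiles), against −0.34 to 0.32 for all genes. The medians were thus close, and single members spread from −1.36 for TPX2 to 1.01 for CDC25B.

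The scaling bears on every value that follows. It divided the shCtrl libraries by 1.08 to 1.10 and the KD libraries by 0.906 to 0.927, a difference of −0.25 on the log2 scale. In the TPM as deposited the median of all genes was −0.20 and that of the members −0.22. With those unscaled values 20 members (52.6%) were lower, where 40.3% of all genes were, 6 (15.8%) were higher, where 16.3% of all genes were, and 5 (13.2%) were changed at least 2-fold, where 8.3% of all genes were. Those 5 were TPX2, NDC80, CDK1, ANLN and CENPA, all lower, and CDC25B was not among them. In the unscaled values every KD library lay below every shCtrl library for 23 members (60.5%), where that was so for 44.9% of all genes, and above for 6 members, where that was so for 18.8%. The same 14 members were lower and called under trimmed-mean scaling, upper-quartile scaling and no scaling: CDK1, CDC25C, CDCA8, BUB1, BUB3, CENPA, NDC80, NUF2, KIF4A, TPX2, NUSAP1, ANLN, UBE2C and TOP2A. Under all 3 scalings 6 members were higher and called: CDC25B, PLK1, AURKB, PRC1, CDC20 and FOXM1. The members' median was −0.0008 with trimmed-mean scaling, −0.082 with upper-quartile scaling and −0.22 without scaling. As the latter settings move values down, a lower call was hard to lose, whereas a higher call could be lost. The 14 and the 6 thus did not face a like test, and the share of all genes called under all 3 was not counted.

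**Figure D1:**
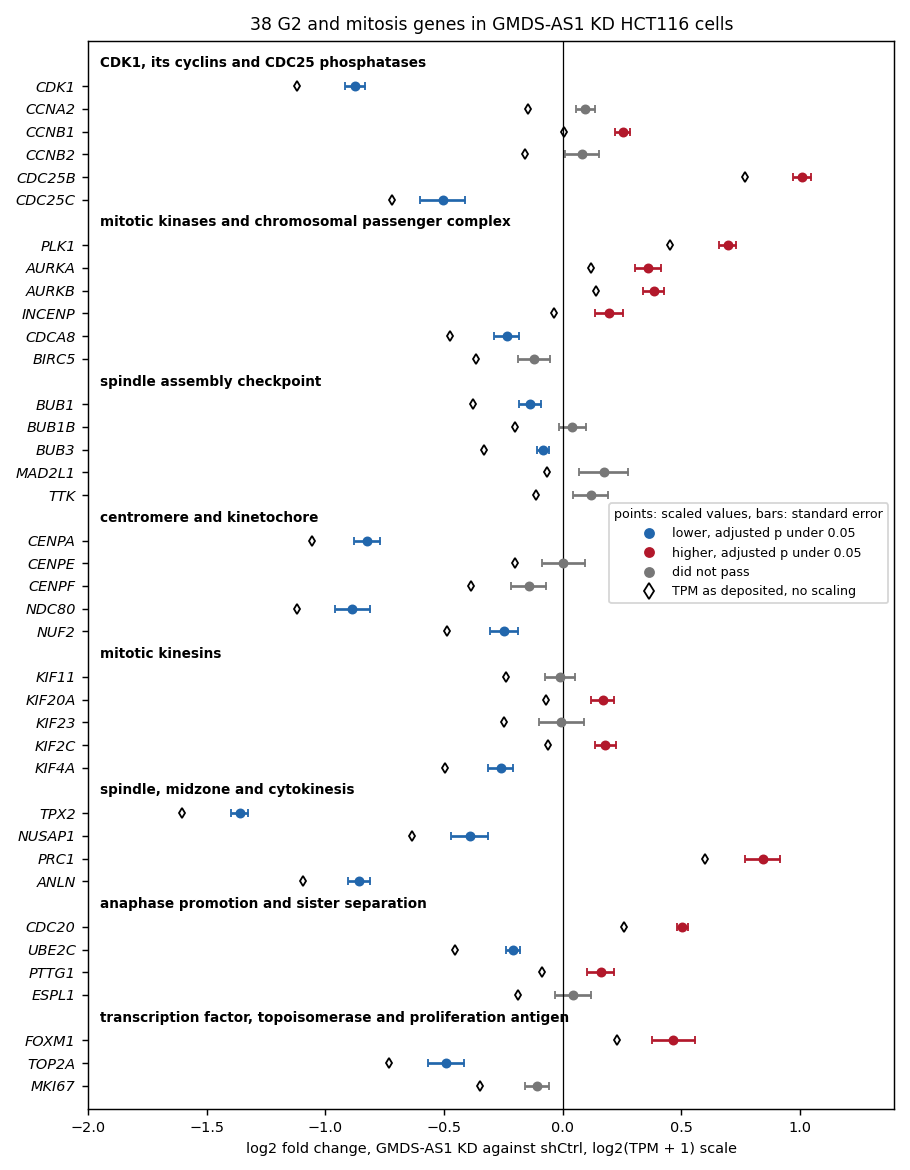
Log2 fold change of GMDS-AS1 KD against shCtrl for each of the 38 genes, on the log2(TPM + 1) scale, by role. Points are values after trimmed-mean scaling, bars their standard error (3 libraries per group), and open diamonds the values with no scaling, which lie lower throughout; TPX2 at −1.36 and CDC25B at 1.01 are the extremes.

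Promoter sequence is shown for genes that changed most because the CHR letters stood near the start of some that fell and of some that rose. RefSeq promoters (250 bases before to 50 after the gene's start, GRCh38.p14) were matched for 31 of the 38 members, and the first listed window of each gene was read. The letters TTTGAA or TTCGAA, on either strand, stood in 22 of these 31 promoters, against 16.6% of 27305 RefSeq promoters. They were found in 10 of 11 promoters of lower members, in 4 of 10 of higher members and in 8 of 10 of members that did not pass. The higher members include CCNB1, INCENP, KIF20A, KIF2C and PTTG1, whose calls did not hold under all 3 scalings. Only INCENP of these held the letters. Of the matched members higher under all 3 scalings, CDC20, PLK1 and PRC1 held them in the first window, and AURKB and CDC25B did not. The difference between lower and higher members was not tested. CCAAT, the NF-Y motif, stood on either strand in 23 of the 31, against 35.7% of all promoters, and in 7 of 11, 8 of 10 and 8 of 10 of the same groups. Of the 31 members, 5 have more than 1 RefSeq start and so more than 1 window. Counting a match in any window of a gene, the CHR letters were found for 24 of the 31 members, against 19.5% of all genes, and for 11 of 11 lower, 5 of 10 higher and 8 of 10 members that did not pass. CCAAT was then found for 25 of the 31, against 39.7% of all genes. A match is a description of these windows, not evidence of binding. Below are 70 bases around the match for 6 of the 8 members with the largest changes. TPX2 was not matched, and CDC25B, the member that rose most, lacked the letters in its first window and held them in 1 of its 4 windows. The sequences are read 5′ to 3′ on the strand of the gene, with the CHR letters (TTTGAA, its reverse TTCAAA, or TTCGAA, which is its own reverse) and CCAAT in capitals.
NDC80, chr18:2571504-2571573, plus strand: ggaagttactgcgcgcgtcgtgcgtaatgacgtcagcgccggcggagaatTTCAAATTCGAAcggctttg
CDK1, chr10:60778120-60778189, plus strand: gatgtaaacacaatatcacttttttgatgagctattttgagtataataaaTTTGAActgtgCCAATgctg
ANLN, chr7:36389792-36389861, plus strand: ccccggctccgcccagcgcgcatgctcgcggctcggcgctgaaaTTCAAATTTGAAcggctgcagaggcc
CENPA, chr2:26785988-26786057, plus strand: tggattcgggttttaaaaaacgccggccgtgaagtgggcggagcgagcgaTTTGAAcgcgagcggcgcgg
PRC1, chr15:90994536-90994605, minus strand: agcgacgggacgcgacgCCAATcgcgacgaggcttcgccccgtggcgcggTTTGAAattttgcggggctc
PLK1, chr16:23678810-23678879, plus strand: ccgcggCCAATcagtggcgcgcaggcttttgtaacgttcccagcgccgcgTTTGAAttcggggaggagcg
The upper 4 belong to genes that fell and the lower 2 to genes that rose. The match began 3 bases before the RefSeq start in NDC80 (its TTCAAA), 20 before in PRC1, 18 before in CENPA and 29 before in PLK1. In ANLN the TTTGAA began 20 bases before the start, with the TTCAAA directly upstream of it. In CDK1 the match began 161 bases before, and its other window holds the letters as well. These RefSeq starts are not the outer ends of the GENCODE genes whose positions are given for single members in the paragraphs that follow. They lie inside the GENCODE gene by 21767 bases in CENPA, 1233 in PLK1, 1094 in PRC1, 56 in ANLN and 46 in NDC80, and coincide with its start in CDK1.

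Among CDK1, its cyclins and the CDC25 phosphatases, the kinase fell while its main cyclin did not. CDK1, the kinase that triggers mitosis (ENSG00000170312, chr10:60778331-60794852), stood at 76.0, 74.2 and 72.4 TPM in shCtrl and at 35.4, 33.0 and 32.6 TPM in GMDS-AS1 KD. The groups lay far apart, with a mean of 74.2 ± 1.82 against 33.7 ± 1.55 TPM (SD, n = 3). The fall was −0.88 on the log2 scale (SE 0.04, limma adjusted p = 7.4e-06). CCNB1, the cyclin B that activates CDK1 at mitotic entry, stood at 145, 142 and 137 TPM in shCtrl and at 141, 145 and 141 TPM in GMDS-AS1 KD. These unscaled values overlapped and were the highest of the group. After scaling CCNB1 was higher by 0.25 (SE 0.03, limma adjusted p = 5.9e-04), whereas without scaling it differed by 0.01 (adjusted p = 0.847). CCNB2, the Golgi-associated cyclin B, stood at 56.4, 63.3 and 58.4 TPM in shCtrl and at 56.1, 54.9 and 48.4 TPM in GMDS-AS1 KD, and its log2 fold change of 0.08 did not pass (95% interval −0.09 to 0.25). CCNA2, cyclin A of S phase and G2, did not pass either (0.10, interval −0.0008 to 0.19, limma adjusted p = 0.0865). Its call depended on the processing in both directions, since CCNA2 passed as lower without scaling (−0.14, adjusted p = 0.0194) and as higher with no filter on low values (0.13, adjusted p = 0.0397). CCNA2 exons overlap those of EXOSC9 on the opposite strand, which stood at 37.8 to 44.1 TPM over all libraries.

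The phosphatases that activate CDK1 moved in opposite directions. CDC25B, which starts CDK1 activation at the centrosome (ENSG00000101224, chr20:3786772-3806121), stood at 40.2, 41.1 and 38.1 TPM in shCtrl and at 69.0, 68.9 and 67.7 TPM in GMDS-AS1 KD. It was the member with the largest rise, 1.01 on the log2 scale (SE 0.04, limma adjusted p = 2.2e-06), or 2.02-fold. Leaving out shCtrl replicate 1 or shCtrl replicate 3 brought it just under 2-fold (log2 fold changes of 0.995 and 0.969). It was also under 2-fold with upper-quartile scaling (0.92) and without scaling (0.77), while the call as higher held in both. CDC25C, which acts on nuclear CDK1 at mitotic entry, stood at 9.01, 9.41 and 7.48 TPM in shCtrl and at 4.90, 4.42 and 5.19 TPM in GMDS-AS1 KD. No libraries overlapped, and CDC25C fell by 0.51 (SE 0.10, limma adjusted p = 0.0042). Its exons overlap those of FAM53C on the opposite strand, and the use of strand in counting is not given in the sources used here.

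**Figure D2:**
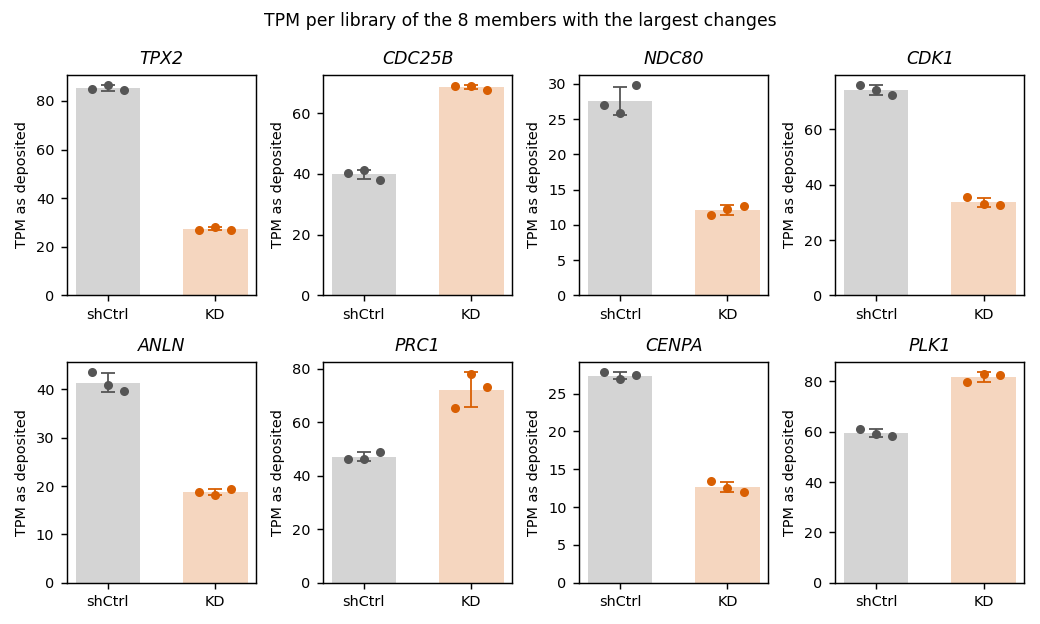
TPM as deposited in each library (points), with the mean (bar) and SD (error bar, n = 3), for the 8 members with the largest changes. In each panel the 3 GMDS-AS1 KD libraries lie wholly below (TPX2, NDC80, CDK1, ANLN, CENPA) or wholly above (CDC25B, PRC1, PLK1) the 3 shCtrl libraries.

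PLK1 and both Aurora kinases were higher after scaling, and the chromosomal passenger complex was mixed. PLK1, the Polo-like kinase of mitotic entry and spindle assembly (ENSG00000166851, chr16:23677656-23690367), stood at 61.1, 59.0 and 58.4 TPM in shCtrl and at 79.7, 83.0 and 82.7 TPM in GMDS-AS1 KD. All KD libraries lay above all shCtrl libraries, and PLK1 rose by 0.70 (SE 0.03, limma adjusted p = 8.1e-06). AURKA, the spindle pole Aurora kinase, stood at 34.6, 35.6 and 33.7 TPM in shCtrl and at 38.5, 39.4 and 35.4 TPM in GMDS-AS1 KD, so that the groups overlapped before scaling. Its rise of 0.36 (SE 0.05, limma adjusted p = 0.0013) was 0.12 without scaling, which did not pass (adjusted p = 0.0844). AURKB, the Aurora kinase of the passenger complex and the most abundant of these 6 genes over both groups, stood at 71.8, 74.6 and 69.4 TPM in shCtrl and at 77.7, 83.0 and 77.6 TPM in GMDS-AS1 KD. AURKB rose by 0.39 (SE 0.04, limma adjusted p = 3.7e-04), and by 0.14 without scaling.

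AURKB works in 1 complex with INCENP, borealin and survivin, whose transcripts did not follow it as a set. CDCA8, which encodes borealin, fell by 0.24 (SE 0.05, limma adjusted p = 0.0079), with 30.5 to 31.0 TPM in shCtrl and 21.0 to 23.6 TPM in GMDS-AS1 KD. BIRC5, which encodes survivin, did not pass at −0.12 (interval −0.28 to 0.04), but passed with upper-quartile scaling (adjusted p = 0.0305) and without scaling (−0.36, adjusted p = 0.0017). INCENP, the scaffold, was higher by 0.20 after scaling (limma adjusted p = 0.0281) but turned to −0.04 without it. INCENP passed without GMDS-AS1 KD replicate 2 (adjusted p = 0.0220) but not without any other single library, where the adjusted p ran from 0.0599 to 0.121, nor with upper-quartile scaling (0.158). Across the 6 genes of kinases and passenger complex, 4 were higher, 1 was lower and 1 did not pass, where 28.5% of all genes were higher and 25.9% lower. Without scaling 2 were higher and 2 lower, where 16.3% of all genes were higher and 40.3% lower.

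The spindle assembly checkpoint, which delays anaphase until every kinetochore is attached, moved little. BUB3, a kinetochore WD-repeat protein and the most abundant of the 38 genes, stood at 335, 333 and 342 TPM in shCtrl and at 268, 264 and 271 TPM in GMDS-AS1 KD. Scaling took up most of this gap: BUB3 was lower by −0.08 after scaling (SE 0.03, limma adjusted p = 0.0302) and by −0.33 without it. Without GMDS-AS1 KD replicate 1, 2 or 3 it did not pass (adjusted p of 0.0831, 0.0848 and 0.0755), nor did it with no filter on low values (0.216) or no variance trend (0.172). BUB1, the kinase that places shugoshin at centromeres, stood at 37.0, 37.5 and 33.8 TPM in shCtrl and at 28.5, 26.7 and 27.6 TPM in GMDS-AS1 KD. Its log2 fold change of −0.14 (limma adjusted p = 0.0465) passed without shCtrl replicate 3 (adjusted p = 0.0178) and not without any other single library (0.0622 to 0.134), nor with no filter (0.161) or no variance trend (0.0824). BUB1B, the related BUBR1 that inhibits CDC20, stood at 47.8, 45.1 and 44.2 TPM in shCtrl and at 37.2, 41.7 and 40.1 TPM in GMDS-AS1 KD. After scaling it was 0.04 (interval −0.09 to 0.18) and did not pass, and without scaling it was lower (−0.20, adjusted p = 0.0186). Neither MAD2L1, the MAD2 inhibitor (0.17, interval −0.07 to 0.42), nor TTK, the MPS1 kinase (0.12, interval −0.06 to 0.29), passed, and both were below 0 without scaling, at −0.07 and −0.11. MAD2L1 passed only when shCtrl replicate 3 was left out (0.27, adjusted p = 0.0163).

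Of the 5 centromere and kinetochore genes, 3 were lower and none higher, where 25.9% of all genes were lower and 28.5% higher. Without scaling 4 were lower and 0 higher, where 40.3% of all genes were lower and 16.3% higher. The 28 other kinetochore subunits described further on had 9 genes lower and 9 higher, a difference that was not tested. NDC80, the microtubule-binding subunit of the outer kinetochore (ENSG00000080986, chr18:2571511-2616635), stood at 27.0, 25.9 and 29.8 TPM in shCtrl and at 11.4, 12.3 and 12.7 TPM in GMDS-AS1 KD. CENPA, the histone H3 variant that marks centromeres (ENSG00000115163, chr2:26764289-26801067), stood at 27.8, 27.0 and 27.4 TPM in shCtrl and at 13.4, 12.5 and 12.0 TPM in GMDS-AS1 KD. For both genes every KD library lay below every shCtrl library. NDC80 fell by 0.89 (SE 0.07, limma adjusted p = 8.4e-05) and CENPA by 0.82 (SE 0.06, limma adjusted p = 2.9e-05). CENPA shares exon bases on the same strand with SLC35F6, a solute carrier, which stood at 17.3 to 18.4 TPM in shCtrl and 9 to 9.84 TPM in GMDS-AS1 KD, so that the split of reads between them is uncertain.

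NUF2, the partner of NDC80 in the same complex, fell less, by 0.25 (SE 0.06, limma adjusted p = 0.0106), with 25.5 to 27.6 TPM in shCtrl and 18.0 to 19.9 TPM in GMDS-AS1 KD. CENPF, a large protein of the outer kinetochore and the most abundant of this group, stood at 57.1, 55.4 and 45.9 TPM in shCtrl and at 39.7, 39.1 and 41.3 TPM in GMDS-AS1 KD. It did not pass at −0.14 (interval −0.32 to 0.04), but did when shCtrl replicate 3, its lowest control, was left out (−0.25, adjusted p = 0.0044), with upper-quartile scaling (adjusted p = 0.0411) and without scaling (−0.39, adjusted p = 0.0063). CENPE, the kinetochore kinesin, was the least abundant member at 4.93 ± 0.401 against 4.16 ± 0.308 TPM (SD, n = 3), and its log2 fold change was 0.00 (interval −0.21 to 0.22), or −0.20 without scaling.

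The mitotic kinesins changed by small amounts. KIF4A, a chromosome-bound kinesin that works with PRC1 on the midzone, fell by 0.26 (SE 0.05, limma adjusted p = 0.0055), from 19.0 to 20.8 TPM in the shCtrl libraries to 13.5 to 13.9 TPM in the KD libraries. KIF4A exons overlap those of PDZD11 on the opposite strand, which stood at 34.6 to 39.4 TPM over all libraries. KIF2C, which removes tubulin from microtubule ends, had the highest mean level of the group over both conditions, at 39.5, 37.2 and 36.4 TPM in shCtrl and 35.8, 34.8 and 37.9 TPM in GMDS-AS1 KD. Its libraries overlapped, and its value of 0.18 after scaling (limma adjusted p = 0.0127) turned to −0.06 without it. KIF2C did not pass without shCtrl replicate 2 (adjusted p = 0.0649) or shCtrl replicate 3 (adjusted p = 0.0656), nor with upper-quartile scaling (0.127). KIF20A, a kinesin of the midzone, likewise was 0.17 after scaling (limma adjusted p = 0.0247) and −0.07 without it. It did not pass without shCtrl replicate 1 (adjusted p = 0.108), shCtrl replicate 2 (0.0933) or GMDS-AS1 KD replicate 3 (0.0669), nor with upper-quartile scaling (0.191), and its exons overlap those of CDC23 and BRD8 on the opposite strand. KIF11, the kinesin that pushes spindle poles apart, was −0.01 (interval −0.16 to 0.14) and KIF23, a kinesin of the cytokinetic bridge, was −0.01 (interval −0.23 to 0.22), and neither passed, though KIF11 did without scaling (−0.24, adjusted p = 0.0193).

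The spindle and midzone group held the largest change of all 38 genes. TPX2, the spindle assembly factor that binds and activates Aurora A (ENSG00000088325, chr20:31739271-31801805), stood at 84.9, 86.5 and 84.4 TPM in shCtrl and at 27.0, 28.1 and 27.1 TPM in GMDS-AS1 KD. The groups were 85.3 ± 1.14 and 27.4 ± 0.642 TPM (SD, n = 3). TPX2 fell by 1.36 on the log2 scale (SE 0.04, interval −1.45 to −1.27, limma adjusted p = 9.6e-07), to 0.389 of its control level, and by 1.60 without scaling. ANLN, the anillin scaffold of the cleavage furrow (ENSG00000011426, chr7:36389806-36453791), stood at 43.5, 41.0 and 39.6 TPM in shCtrl and at 18.9, 18.2 and 19.4 TPM in GMDS-AS1 KD. It fell by 0.86 (SE 0.05, limma adjusted p = 1.0e-05), and its promoter, printed above, holds the CHR letters and their reverse side by side. KIAA0895, whose exons overlap ANLN on the opposite strand, was also lower, at 7.98 to 10.3 TPM in shCtrl and 2.87 to 3.87 TPM in GMDS-AS1 KD.

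PRC1, which bundles the antiparallel microtubules of the midzone (ENSG00000198901, chr15:90966038-90995629), went the other way. It stood at 46.1, 46.3 and 49.0 TPM in shCtrl and at 65.2, 78.0 and 73.3 TPM in GMDS-AS1 KD, and it rose by 0.84 (SE 0.07, limma adjusted p = 1.0e-04). A readthrough gene on the same strand, AC068831.7, was also higher, at 18.1 to 20.3 TPM in shCtrl and 24.3 to 28.99 TPM in GMDS-AS1 KD, and reads may have been divided between them. NUSAP1, which stabilizes spindle microtubules near chromatin, stood at 88.0, 88.7 and 79.1 TPM in shCtrl and at 49.4, 53.4 and 61.3 TPM in GMDS-AS1 KD. Its libraries did not overlap, and it fell by 0.39 (SE 0.08, limma adjusted p = 0.0053); it too shares exon bases with another gene on its strand, AC087721.2. All 4 genes of this group passed, 3 lower and 1 higher, also without scaling. Of all genes, 25.9% were lower and 28.5% higher after scaling, and 40.3% lower and 16.3% higher without it.

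Among genes of anaphase, the activator of the ubiquitin ligase and the enzyme that feeds it moved apart. CDC20, the activator of the anaphase-promoting complex (ENSG00000117399, chr1:43358955-43363203), stood at 153, 152 and 148 TPM in shCtrl and at 183, 178 and 181 TPM in GMDS-AS1 KD. It rose by 0.51 (SE 0.02, limma adjusted p = 5.8e-06). UBE2C, the ubiquitin-conjugating enzyme that starts chains on its substrates, had the highest mean level of the group over both conditions, at 194, 195 and 189 TPM in shCtrl and 145, 136 and 141 TPM in GMDS-AS1 KD. It fell by 0.21 (SE 0.03, limma adjusted p = 8.3e-04), and neither gene's groups overlapped. PTTG1, the securin that the complex destroys, was 0.16 after scaling (limma adjusted p = 0.0486) and −0.08 without it. PTTG1 passed without shCtrl replicate 2 (adjusted p = 0.0271) or GMDS-AS1 KD replicate 3 (0.0256) and not without any other single library (0.111 to 0.199). It also missed the threshold with upper-quartile scaling (0.343), a pseudocount of 0.1 (0.0501), no filter (0.0726), a filter on group means of 1 TPM (0.0603) and no variance trend (0.103). ESPL1, the separase that cuts cohesin, did not pass at 0.05 (interval −0.14 to 0.23), and was −0.19 without scaling.

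The transcription factor and the markers of cycling cells also differed from one another. FOXM1, the forkhead factor that activates G2 and mitotic genes, stood at 21.6, 19.1 and 22.4 TPM in shCtrl and at 23.5, 27.3 and 23.8 TPM in GMDS-AS1 KD. The groups were close but did not overlap, and FOXM1 rose by 0.47 (SE 0.09, limma adjusted p = 0.0042), or by 0.23 without scaling (adjusted p = 0.0476). FOXM1 exons overlap those of ITFG2 on the opposite strand, which stood at 11.2 to 14.5 TPM over all libraries. TOP2A, the topoisomerase that untangles sister chromatids, stood at 48.5, 42.3 and 39.0 TPM in shCtrl and at 26.2, 25.2 and 25.3 TPM in GMDS-AS1 KD, and it fell by 0.49 (SE 0.07, limma adjusted p = 0.0014). MKI67, the Ki-67 antigen, stood at 44.3, 48.8 and 42.8 TPM in shCtrl and at 35.9, 34.3 and 35.7 TPM in GMDS-AS1 KD. These unscaled libraries did not overlap, yet after scaling MKI67 was −0.11 and did not pass (interval −0.23 to 0.01, limma adjusted p = 0.114), whereas it passed with upper-quartile scaling (adjusted p = 0.0158) and without scaling (−0.35, adjusted p = 0.0017).

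Ratios between genes within a library do not depend on scaling, and they show how far partners came apart. The pairs were picked after their values had been seen, so the ratios are descriptions with no test. CCNB1 to CDK1 was 1.91, 1.92 and 1.89 in shCtrl and 3.98, 4.40 and 4.33 in GMDS-AS1 KD. AURKA to TPX2, the kinase over its activator, was 0.407, 0.411 and 0.400 in shCtrl and 1.43, 1.399 and 1.31 in GMDS-AS1 KD. CDC25B to WEE1, phosphatase over opposing kinase, was 2.19, 2.21 and 2.05 in shCtrl and 8.54, 8.48 and 11.3 in GMDS-AS1 KD. In these pairs the balance of transcripts shifted 2.22-fold, 3.39-fold and 4.40-fold, in the last case toward the activator of CDK1 while CDK1 itself was lower.

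Other partners shifted less or more. PRC1 to ANLN went from 1.14 ± 0.0893 to 3.84 ± 0.420 (SD, n = 3). NUF2 to NDC80, which pair in 1 coiled coil, went from 0.967 ± 0.0351 to 1.55 ± 0.171. SPC24 to NDC80, subunits at opposite ends of the same complex, went from 0.223 ± 0.0337 to 0.962 ± 0.177. In GMDS-AS1 KD the transcript level of SPC24 was thus closer to that of NDC80, and that of NUF2 further from it. SPC25, another subunit of the complex, was not among the pairs. It went from 24.5 ± 0.859 TPM in shCtrl to 15.5 ± 0.736 TPM in GMDS-AS1 KD. AURKB to CDCA8 went from 2.34 ± 0.101 to 3.64 ± 0.319, CDC20 to UBE2C from 0.783 ± 0.00547 to 1.29 ± 0.0242, and PLK1 to BORA, the kinase over its activator Bora, from 4.99 ± 0.200 to 13.5 ± 2.35. In all 9 pairs examined the KD libraries lay above the shCtrl libraries without overlap. Each pair was written with the gene that rose, or fell less, on top, so the shared direction is not a result.

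A further 152 cell cycle genes in 7 lists, all tested, gave the setting for the 38. Of these, 50 were lower, 48 were higher and 3 passed at 2-fold or more. Without scaling the split was 88 lower and 26 higher, with 9 at 2-fold or more. Of all genes, 25.9% were lower, 28.5% higher and 7.17% at 2-fold or more after scaling. Without scaling these shares were 40.3%, 16.3% and 8.3%. They are the background for each list below, and no list was tested against them.

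Among 14 regulators of G2/M, 3 were lower and 7 higher (6 and 4 without scaling). The list mixes brakes and checkpoint kinases with genes that promote mitotic entry, such as CDC25A, MASTL, ENSA and ARPP19. Of these promoters, ENSA (0.41, or 0.17 without scaling) was among the higher genes in both settings. ARPP19 was higher after scaling (0.25) but not without it (0.008, limma adjusted p = 0.865). CDC25A and MASTL did not pass after scaling, and MASTL was lower without it (−0.24, limma adjusted p = 0.0423). WEE1, the kinase that inhibits CDK1, had the largest fall, from 18.4, 18.6 and 18.6 TPM in shCtrl to 8.08, 8.12 and 5.97 TPM in GMDS-AS1 KD (log2 −1.01, limma adjusted p = 3.9e-04). CHEK2, a DNA damage kinase, had the largest rise, 0.82 (limma adjusted p = 4.2e-05). CDKN1A, the p21 inhibitor of cyclin kinases, was far more abundant than any of the 38, at 772 ± 4.79 against 675 ± 11.1 TPM (SD, n = 3), and did not pass (0.05, limma adjusted p = 0.0673), though it was −0.19 without scaling (adjusted p = 3.0e-04).

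Of 16 genes of the MuvB complex, B-MYB, NF-Y and the E2F and pocket proteins, 6 were lower and 5 higher (10 and 4 without scaling). LIN52, a MuvB subunit, fell by 1.20 (SE 0.12, limma adjusted p = 1.8e-04), from 8.27 to 11.3 TPM in shCtrl to 2.80 to 2.99 TPM in GMDS-AS1 KD. LIN54, the MuvB subunit that contacts the CHR, fell by 0.41 (SE 0.07, limma adjusted p = 0.0022). MYBL2, which encodes B-MYB, rose by 0.72 (SE 0.05, limma adjusted p = 3.1e-05), in the same direction as FOXM1.

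Among 17 genes of the anaphase-promoting complex and its regulators, 4 were lower and 5 higher (9 and 2 without scaling). The subunit CDC23 fell by 0.47 (limma adjusted p = 0.0010), and ANAPC5, another subunit, rose by 0.87 (limma adjusted p = 2.7e-06). FZR1, the CDH1 activator that follows CDC20, rose by 0.34 (limma adjusted p = 0.0011), with 0.10 without scaling (adjusted p = 0.132). UBE2S, which extends the chains that UBE2C starts and is named after its values were seen, stood at 200, 583 and 620 TPM in shCtrl and at 203, 129 and 138 TPM in GMDS-AS1 KD. Its groups overlapped through shCtrl replicate 1, and it did not pass (−1.19, SE 0.44, limma adjusted p = 0.0563).

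Condensin and cohesin had 11 of 22 genes lower and 4 higher (14 and 2 without scaling), from −0.86 for ESCO2, a cohesin acetyltransferase, to 0.65 for CDCA5, the sororin that protects cohesin. The other kinetochore subunits had 9 of 28 lower and 9 higher (15 and 3 without scaling), from −0.93 for SKA1, which tracks microtubule ends with NDC80, to 1.04 for SPC24. The other spindle and cytokinesis genes had 12 of 26 lower and 6 higher (18 and 3 without scaling), from −0.65 for CKAP2, a spindle protein, to 0.67 for CKAP5, the microtubule polymerase chTOG. DNA replication genes, which belong to the phase before, had 5 of 29 lower and 12 higher (16 and 8 without scaling), from −0.92 for RRM2, a subunit of ribonucleotide reductase, to 0.92 for MCM5, a subunit of the replicative helicase. Each of these extreme genes passed (limma adjusted p of at most 0.0032). Beside these counts, 25.9% of all genes were lower and 28.5% higher after scaling, and 40.3% lower and 16.3% higher without it.

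Pseudogenes and paralogues named after members were low, though their likeness in sequence was not measured. Of 17 pseudogenes and paralogues of members, such as PTTG2, KIF4B and CDC20P1, none exceeded 1.5 TPM in any library. How reads were divided between a member and its copies was not tested. The level of a copy does not bound the error this leaves in the values of those members.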

How the data were processed

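Per the labels and the study's methods, the authors prepared TruSeq poly-A libraries, ran paired-end sequencing and estimated gene levels with Cufflinks and RSEM. The submitters' processing notes name Trimmomatic 0.27, TopHat2 2.1.1 and GRCh38.p13. The authors deposited TPM per Ensembl gene, 1 column per library, whose totals ran from 991058.5 to 992992.1, so neither read totals nor counting error can be had. Values were read for 60662 genes, and 2 broken lines were left out. The labels call the 3 libraries of a group biological replicates without naming cultures. The p-values thus weigh each group difference against the spread between these libraries, which limma moderates over all genes tested.

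TPM were divided by trimmed-mean factors (30% of log ratios and 5% of means trimmed, unweighted). The genes kept had 0.5 TPM or more in 3 or more libraries and were fitted as log2(TPM + 1) with limma 3.58.1 (R 4.3.3) with a variance trend, and p-values were Benjamini-Hochberg adjusted over all 16901 genes. Fold changes on this scale understate low genes. The code was tested on simulated data. Gene positions came from GENCODE v29. The alternatives changed the scaling, pseudocount, filter, trend, replicate block or 1 library at a time.

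The members and lists were chosen with earlier results of these data known. Every member was named. Values per library were given for members changed at least 2-fold, the 8 largest falls and rises, the most abundant member of each of 8 role groups and 4 pairs of paralogues. Other lists were named by their largest fall and rise, with CDKN1A, WEE1, MYBL2, LIN54 and FZR1.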

Additional observations from a re-analysis of the deposited data

How the results depend on the processing

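Over 13 alternatives, 419 of 494 member values kept direction and side of the threshold, and 18 of the 26 called members kept both in every alternative. Scaling mattered most. Without scaling 6 members were higher, 5 changed at least 2-fold, and the members' median was −0.22, with 88 lower and 26 higher among the other 152 cell cycle genes. The counts of these 152 genes, in the main fit and in every alternative, were chosen after seeing the data. With upper-quartile scaling 1 member changed at least 2-fold and the median was −0.082, against −0.073 for all genes. Signs turned without scaling for CCNA2 (−0.14), CCNB2 (−0.16), INCENP (−0.037), BUB1B (−0.20), MAD2L1 (−0.067), TTK (−0.11), CENPE (−0.20), KIF20A (−0.071), KIF2C (−0.060), PTTG1 (−0.085) and ESPL1 (−0.19). They turned with upper-quartile scaling for CCNB2 (−0.0055), BUB1B (−0.046), CENPE (−0.070) and ESPL1 (−0.039), and with no filter for KIF11 (0.018) and KIF23 (0.026). The shifts between scalings follow from the common factor between groups. With no filter the scaling factors were recomputed over more genes, and the members' median was 0.0286 against −0.0008 in the main fit. With 1 library left out, lower members numbered 12 to 15, higher members 9 to 11 and 2-fold members 1 to 2 (1 without shCtrl replicate 1 or 3), and values ran from −0.054 to 0.038 for CENPE, −0.016 to 0.11 for ESPL1, −0.068 to 0.0057 for KIF11 and −0.085 to 0.080 for KIF23.

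Deviations from the group means were not shared between like-numbered libraries (correlations over genes of 0.03, −0.04 and 0.01), so the numbers do not pair them. With the replicate block 12 members were lower and 11 higher, and INCENP, BUB1 and BUB3 no longer passed. The share of all genes called was counted only for the main fit and for unscaled TPM. Member counts in the other alternatives thus have no background beside them and do not set the members apart from all genes. Small changes are limited by the unknown depth and by 3 libraries a group.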
